A study of Oryza sativa with 19 samples.

Results

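The comparison concerned messenger RNA in shoots of 2 rice varieties, IR64 and Nipponbare (written NB), on Agilent arrays of 2 designs, S1 and S2, that carry different probes. Its members were the 8 arrays whose titles name a shoot, 2 of IR64 and 2 of NB on each design, out of 19 arrays in the series. The other 11 arrays held NB root, panicle and callus and serve here as a reference for where a probe gives signal. By the labels all shoots were grown for 10 days in soil in a greenhouse, and no array carried a treatment or a transgene. The study's methods give an older seedling age and RNA pooled from several plants, with repeated hybridization of each sample. The 2 arrays of a group may therefore be technical repeats of 1 pool, and the p-values below measure spread between arrays of a group only. Those of limma pool that spread over the 5 groups of a design, NB root, panicle and callus included. Each array was hybridized with the same RNA in both dyes, so its Cy3 and Cy5 channels were averaged. RNA of IR64 shoot was extracted with Trizol by the labels, which name RNeasy for the NB groups, whereas the methods name Trizol for the shoots of both varieties. If the labels hold, variety and reagent cannot be told apart.

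Cultivated Asian rice falls into a pair of main subspecies, indica and japonica, which differ at many places in the genome. IR64 is an indica variety that was bred for irrigated fields and grown widely in Asia, and Nipponbare is the japonica variety from which the reference genome was made. An oligonucleotide probe reads the transcripts that match it, so its signal depends on the amount of a transcript and on how well that transcript pairs with the probe. The probes were designed on NB sequence. In the results below, a lower amount of transcript in IR64 and weaker pairing of an IR64 transcript with an NB probe cannot be told apart. In shoot tissue, less transcript per cell and fewer cells that hold it cannot be told apart either. The probe names sort the arrays into 7 classes. AK probes carry the accession of a full-length cDNA, and all 1028 of them are on both designs. COMM probes have names for a common part of a cDNA locus (ending in _C), and SPEC probes name a particular clone of a locus (ending in _S and a number, which is not the array design). E5 probes are further probes of a common part, often several to a locus. END3TU probes carry the word End3 in their names, and CDS and END probes are named for gene models. No identifier of the arrays matched the gene table used here, so gene names, gene groups and the shoot marker genes could not be looked up, and no probe is given a function. The marker check of the tissue could not be made.

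All values are log2 of the processed signal after each channel was scaled to a median of 1000, with a limit at 100000. The median background-subtracted signal of the shoot arrays lay between 54.8 and 100.3 on S1 and between 37.52 and 92.87 on S2, and on both designs replicate 2 of each variety was the dimmer array. The share of the 42034 probes of a design that was detected, that is well above background in both channels, was 76.6% ± 4.82 (SD, n = 2) in IR64 and 77.5% ± 5.76 (SD, n = 2) in NB on S1. On S2 it was 73.8% ± 10.0 (SD, n = 2) and 72.6% ± 8.90 (SD, n = 2). The varieties differed by less than the spread between their arrays (exact permutation test, two-sided p = 0.667 on each design; the design cannot reach 0.05). With 2 arrays a side, precision is limited by their number. Replicate 1 of NB shoot and replicate 1 of IR64 shoot were scanned on different days, and replicate 2 of both varieties was scanned on 1 shared day.

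More probes were called lower in IR64 than were called higher, on both designs. On S1, limma called 773 probes lower in IR64 (2.1% of the 36867 tested) and 259 higher (0.703%), or 1032 in all (2.8%) at adjusted p under 0.05. On S2, where the replicates differed more, it called 205 lower (0.568% of 36114) and 18 higher (0.0498%), or 223 in all (0.617%). The median difference over all tested probes was 0.03 on the log2 scale on each design. The differences had a longer tail toward lower values. On S1 the 1st percentile was -2.66 and the 99th 1.5, and on S2 they were -2.70 and 1.44. Differences over 4-fold were found for 621 probes lower (1.68%) and 172 higher (0.467%) on S1, and for 639 lower (1.77%) and 164 higher (0.454%) on S2, counted without a test. Of the probes called, the median fold was 5.97 for those lower and 4.81 for those higher on S1, and 20.2 and 14.8 on S2. Every array of IR64 lay below every array of NB for all 773 and 205 probes called lower, which the calls select for. Over all tested probes this order was found for 5948 of 36867 on S1 and 5058 of 36114 on S2. Every array of IR64 lay above every array of NB for 6012 tested probes on S1 and 4613 on S2. On the shared scan day alone, with 1 array a side and no test, the median difference of the probes called lower was -2.48 on S1 and -4.45 on S2. The arrays of that day also entered the calls, so these values are no independent check. With scan day as a block, limma called 465 lower and 360 higher on S1 and 429 lower and 181 higher on S2. The count of calls rested on each array. Leaving out an IR64 shoot array of S1 gave 601 calls (replicate 1) or 520 (replicate 2), and leaving out an NB shoot array gave 389 (replicate 1) or 512 (replicate 2). On S2 the call of 223 probes was reduced to 1 without IR64 shoot replicate 2 and to 0 in limma without any other single shoot array, where between 1236 and 1313 probes had an unadjusted p under 0.05. With normexp background correction on S2, 350 probes were called lower and 80 higher. A fit of only the shoot groups, with fewer arrays, called 131 probes on S1. On S2 it called 0 in limma, where 2083 had an unadjusted p under 0.05.

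The classes of probes differed in how often they were called lower in IR64. Probes of cDNA loci and 3′ end clusters made up most of the calls. On S1, 3.86% of the END3TU probes tested (162), 3.6% of the E5 probes (192), 2.82% of the AK probes (29), 2.45% of the COMM probes (249) and 1.57% of the SPEC probes (31) were called lower. Of the probes of gene models, 0.512% of CDS (40) and 1.1% of END (70) were called lower, against 2.1% of all probes. On S2 the order of the shares was AK 1.26% (13), END3TU 1.15% (43), E5 0.858% (58), COMM 0.676% (65), SPEC 0.4% (7), CDS 0.165% (13) and END 0.113% (6), against 0.568% of all probes. Calls in the other direction were spread differently. Gene-model probes were called higher about as often as lower on S1, with 59 CDS and 64 END probes higher, but not on S2, where 1 CDS and 3 END probes were called higher. Among AK probes, 1 was called higher on S1 and 0 on S2. Their median level in NB shoot was 14.62 on S1 and 14.78 on S2, under an upper limit of 16.61. The limit bounds how far a bright probe can rise, and its part in these counts was not tested. These shares are descriptions, and the difference between classes was not tested.

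**Figure D1:**
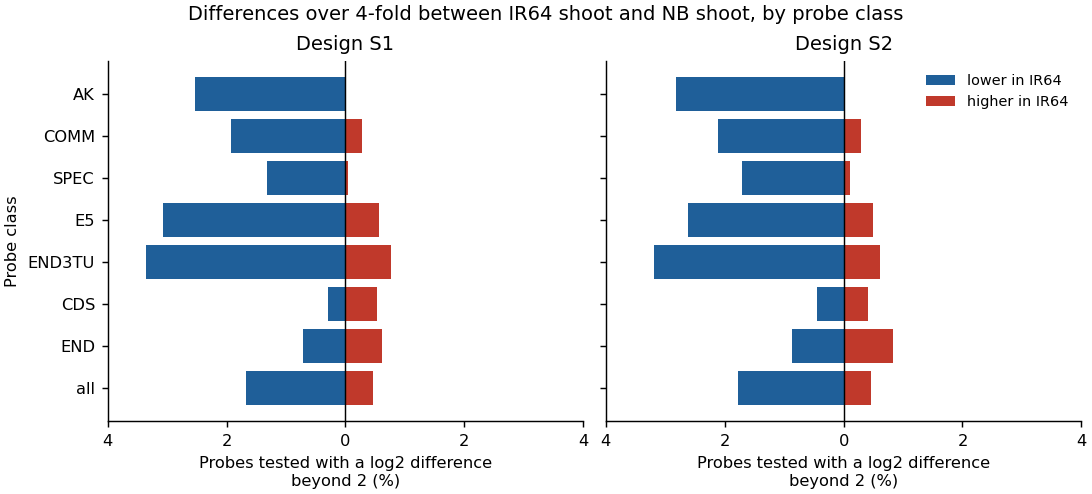
Percent of the tested probes of each class with a log2 difference beyond 2 (4-fold), lower in IR64 shoot to the left and higher to the right, on designs S1 and S2 (means of 2 arrays a variety, no test). CDS and END probes have short bars on the lower side (0.294% and 0.722% on S1), while END3TU and E5 probes have the longest (3.36% and 3.07% on S1).

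The same pattern was seen in the tails. Differences below -2 were found for 3.36% of END3TU and 3.07% of E5 probes on S1 (3.19% and 2.62% on S2), but for 0.294% of CDS probes on S1 and 0.443% on S2. On the shared scan day, whose arrays also entered the values above, the shares on S1 were 3.2%, 2.89% and 0.435%. The classes also differed in brightness, since the median level in NB shoot on S1 was 14.62 for AK, 11.27 for COMM and 9.49 for CDS probes, and the part of brightness in the shares was not tested. With the tested probes of S1 in 4 equal groups by mean shoot level, the share called lower was 1.43% in the dimmest group, then 2.03% and 2.6%, and 2.34% in the brightest. The class medians moved little and did not hold on the shared scan day. The median difference of CDS probes was 0.14 on S1 and 0.17 on S2, and on the shared day it was -0.01 and 0.07. That of COMM probes was -0.05 and -0.12, and on the shared day 0.11 and 0.01.

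The largest differences were those of probes that were bright in NB shoot and at or near background in IR64. R11-00206F_C, a COMM probe of S1, read 6.38 and 6.93 in IR64 and 14.54 and 14.25 in NB shoot. Neither IR64 array had it well above background, and it was at least 96.1-fold lower there (log2 difference -7.74, SE 0.43, limma's adjusted p 5.59e-05). R02-00693F_C read 7.29 and 7.88 in IR64 and 14.83 and 14.67 in NB shoot, at least 123-fold lower in IR64. In this probe the NB tissues also differed, with means of 8.13 in root, 11.30 in panicle and 6.62 in callus, where it was not detected on either array. E5_02046 of the locus R06-CHRv2-00523F read 7.79 and 7.19 in IR64 and 14.31 and 13.85 in NB shoot, at least 69.3-fold lower. AK062819 was detected on both IR64 arrays of S1 at 10.00 and 9.02 and read 15.90 and 15.94 in NB shoot. R12-00112F_C read 8.46 and 9.28 in IR64 and 15.36 and 15.02 in NB shoot. On S2, R06-00523F_S1 was at the upper limit of 16.61 on both NB shoot arrays and read 6.22 and 8.02 in IR64, at least 385-fold lower (limma's adjusted p 0.00602). R03-E3TU-00836F read 6.64 and 7.37 in IR64 and 15.10 and 15.27 in NB shoot, at least 143-fold lower. R03-00594F_C read 7.28 and 7.66 in IR64 against 15.49 and 15.56 in NB shoot, at least 181-fold lower. R01-01440F_C read 6.02 and 7.24 against 14.24 and 14.82, at least 91.2-fold lower. The arrays of the varieties overlapped for none of these probes, as the rule that named them required. All of them except R02-00693F_C were detected on every array of NB root, panicle and callus on their design.

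**Figure D2:**
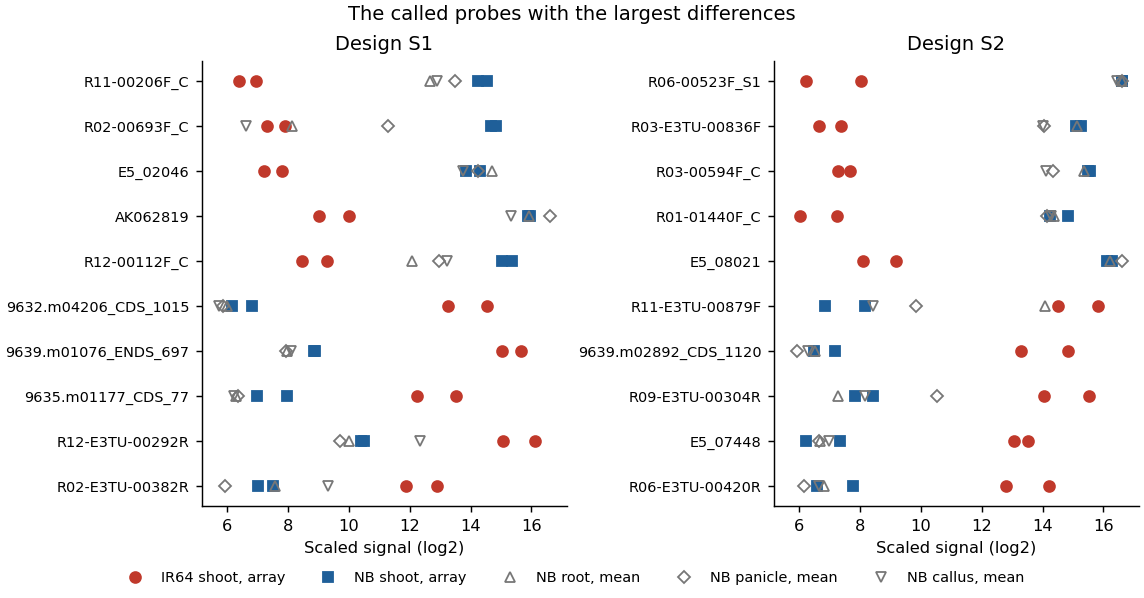
Scaled log2 signal of the 5 called probes with the largest difference in each direction on each design: every IR64 shoot array (circles), every NB shoot array (squares) and the mean of NB root, panicle and callus (open symbols; NB callus is missing for E5_08021, where a spot was marked as an outlier, and NB panicle on S2 is 1 array). The upper 5 rows of each panel have IR64 to the left of NB shoot and the lower 5 have it to the right.

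In the other direction, several probes were bright in IR64 shoot and dark in NB shoot and in all other NB tissues. The CDS probe 9632.m04206_CDS_1015 of S1 read 13.27 and 14.55 in IR64 and 6.16 and 6.82 in NB shoot. It was detected on no NB array of any tissue of S1, and was at least 72.9-fold above NB shoot (log2 difference 7.43, SE 0.45, limma's adjusted p 8.06e-05). A second CDS probe, 9635.m01177_CDS_77, read 12.25 and 13.51 against 6.98 and 7.97, at least 35.7-fold higher, and was on no NB array of S1 detected either. On S2 the CDS probe 9639.m02892_CDS_1120 read 13.29 and 14.84 in IR64 and 6.48 and 7.19 in NB shoot, at least 64.2-fold higher, and was detected on no NB array either. The same held for R06-E3TU-00420R, with 12.80 and 14.22 against 6.57 and 7.77, at least 43.6-fold higher. The END probe 9639.m01076_ENDS_697 was detected on both NB shoot arrays of S1 at 8.89 and 8.86 but read 15.03 and 15.65 in IR64 (log2 difference 6.47, SE 0.46, limma's adjusted p 0.000142). R12-E3TU-00292R read 15.05 and 16.12 in IR64 and 10.39 and 10.50 in NB shoot, with 12.34 in callus. R02-E3TU-00382R read 11.88 and 12.91 against 7.0 and 7.52, at least 25.5-fold higher, with 9.32 in callus. R09-E3TU-00304R of S2 read 14.06 and 15.53 against 7.82 and 8.41, at least 97.8-fold higher, with 10.52 in panicle. In each of these 3 the IR64 shoot arrays were above every NB tissue. Of the probes called higher that were on neither NB shoot array detected, 16 of 55 on S1 and 2 of 7 on S2 were on no other NB array detected. Over all tested probes, 121 of 36867 on S1 and 113 of 36114 on S2 were detected on no root, panicle or callus array. A probe detected on no NB array was tested only because IR64 shoot had it detected. Its p-value and its place in these counts are therefore no independent support.

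Other probes dark in NB shoot gave signal elsewhere in NB. R11-E3TU-00879F of S2 read 14.52 and 15.82 in IR64 shoot and 6.84 and 8.16 in NB shoot, where it was not well above background. In NB root its mean was 14.08, close to IR64 shoot. The difference between the shoots was at least 138-fold (limma's adjusted p 0.00921). R01-E3TU-01031F of S1 read 9.47 and 9.94 in IR64 shoot and 7.43 and 7.22 in NB shoot, at least 3.87-fold higher, with a mean of 14.04 in NB root. R07-00462R_C read 9.47 and 10.09 against 6.65 and 6.85, at least 4.16-fold higher, with 13.81 in NB panicle. These 3 probes thus gave a signal in NB, in an organ other than the shoot.

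Where several probes read 1 cDNA locus, most of them shifted the same way, but by different amounts. Among 4950 loci with at least 2 tested COMM, SPEC or E5 probes on both designs together, 184 had a probe called lower. All probes were called lower at 10 of these loci, 2 or more at 73, and every probe had a negative difference at 120. Of the 654 other probes at the 184 loci, 81% were negative and 46.2% were below -1, whereas 6.88% of all probes of such loci were below -1. At 2 of the loci some probe was above 1. For the direction higher there were 32 loci, with every probe positive at 17 and all called at 0. Of their 151 other probes 43% were above 1, against 1.57% of all probes of such loci. No locus had probes called both ways. Probes of 1 locus share their transcript, so they are not replicates.

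At R11-CHRv2-00319R all 8 probes were called lower, 2 on S1 and 6 on S2, with fitted differences of -6.59 to -3.39. E5_07494 of this locus read 6.74 and 7.44 in IR64 and 13.54 and 13.82 in NB shoot, at least 50.5-fold lower and not well above background on either IR64 array. E5_04634, the least changed, read 11.41 and 11.23 against 14.63 and 14.79. At R03-CHRv2-00809F 7 of 8 probes were called lower, with differences of -5.26 to -3.21. Its NB shoot arrays read 15.36 to 16.61, and its IR64 arrays 10.61 to 13.77, so both varieties gave a clear signal at this locus. All 3 probes of R10-CHRv2-00084R were called lower (-5.95 to -5.12). R06-CHRv2-00523F had 11 of 12 probes called lower. Its exception, R06-00523F_S2, is named for another cDNA clone of the locus than R06-00523F_S1. It read 9.05 and 8.70 in IR64 and 9.35 and 9.05 in NB shoot, and this low level limits how far it could fall. Its difference was -0.33 (limma's adjusted p 1), beside the bound of at least 385-fold lower for R06-00523F_S1. R01-CHRv2-00578F was alike in this, with at least 97.3-fold lower signal for its COMM probe and differences of -1.65 and -0.78 for its SPEC probes. The COMM probe, not well above background on either IR64 array, read 7.0 and 7.73 in IR64 and 14.37 and 14.88 in NB shoot, and the SPEC probe R01-00578F_S1 read 10.70 and 9.67 against 10.89 and 11.03.

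At some loci the difference changed in an ordered way along the probes. The identifier of a COMM or E5 probe ends in a number by which its probes can be ordered, although the sources used here do not say what it counts. At R11-CHRv2-00285F the difference was 0.15 at number 367, -1.34 at 377, -4.38 at 417 and -7.56 at 437. It then returned to -5.09 at 457, -4.16 at 467, -3.68 at 477, -2.49 at 503, -1.64 at 515 and -1.82 at 525. Of these probes 6 were called, and the lowest, E5_08021, lies on S2, while the probes at 417 and 457 lie on S1. NB shoot read 12.29 to 16.52 at this locus. IR64 read 15.69 and 15.81 at number 367 but 9.17 and 8.1 at 437. At R06-CHRv2-00523F the difference was -3.53 at number 53, -4.06 at 54, -3.79 at 55, -4.75 at 56, -5.15 at 57, -5.24 at 58 and -5.43 at 59. The probes at 60, 61 and 62 were not well above background on either IR64 array, and they were at least 69.9-fold, 69.3-fold and 80.3-fold lower, with no order among them. R06-CHRv2-00525F, chosen after its values were seen, had bounds of at least 8.21-fold to 12.2-fold lower at numbers 504 to 522, where IR64 was not well above background, and then -3.10 at 527, -3.00 at 532, -2.12 at 537, -1.45 at 542 and -1.60 at 547. Of its 9 probes 3 were called. At R12-CHRv2-00094R the order was less even, with -0.79 at number 62, -0.01 at 215, at least 59.6-fold lower at 315, -2.13 at 374 and -5.42 at 493.

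**Figure D3:**
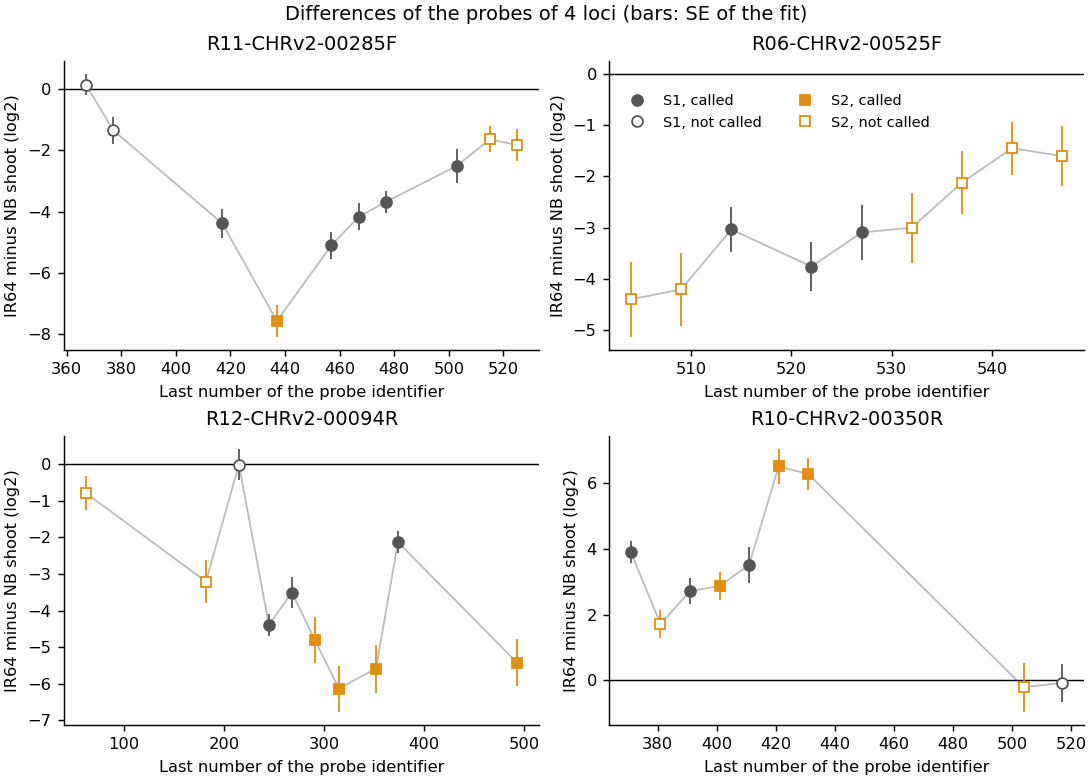
Log2 difference, IR64 minus NB shoot, of each COMM and E5 probe of 4 loci against the last number of its identifier, on S1 (circles) and S2 (squares). Bars are the SE of the fit, and filled symbols were called at adjusted p under 0.05. Probes of both designs fall on 1 course at R11-CHRv2-00285F, from 0.15 down to -7.56 and back to -1.82. R06-CHRv2-00525F was added after its values were seen; its probes at 504 to 522, that of R12-CHRv2-00094R at 315 and those of R10-CHRv2-00350R at 421 and 431 are drawn at the fitted value but have only a bound.

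Neighbouring COMM and E5 probes whose numbers differed by 1 to 15 had a median absolute difference of 0.196 between their log2 differences (5226 pairs), and those 61 to 120 apart 0.306 (837 pairs). Where at least 1 probe of the pair was below -2, both were below -2 in 65.1% of 281 pairs at 1 to 15, in 56.6% of 76 pairs at 16 to 30, in 40.5% of 37 pairs at 31 to 60 and in 36.4% of 22 pairs at 61 to 120. At 1 to 15 the share was 65.6% for pairs on the same design and 64.8% for pairs on different designs. At 61 to 120 it was 18.2% and 54.5% of 11 pairs each, so that pairs on different designs did not follow the fall in the last step (31.6% at 31 to 60). These are descriptions, with no test.

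The probes called higher at a locus followed the same kinds of course. At R10-CHRv2-00350R 6 of 9 tested probes were called higher. E5_07448 read 13.53 and 13.05 in IR64 and 6.23 and 7.33 in NB shoot, where it was not well above background (log2 difference 6.51, at least 37.5-fold). The next probe, at number 431, was at least 57.7-fold higher, and those from 371 to 411 had differences of 1.72 to 3.90. The probes at 504 and 517 had -0.21 and -0.08, with IR64 at 9.43 and 8.47 against 9.77 and 8.54 in NB shoot at 504. The probe at 504 was well above background on only 1 array of each variety, so it lay near background in both. The other loci with high means were more uniform. At R04-CHRv2-00163F all 9 probes were between 1.87 and 2.77, and the 5 on S1 were called. At R04-CHRv2-00058R the 10 probes were between 0.65 and 3.35 with 5 called, and at R12-CHRv2-00310F between 0.61 and 3.74 with 5 called.

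The probes on both designs gave a second reading of the same comparison, possibly of the same RNA. Of the 1028 AK probes, 29 were called lower on S1 and 13 on S2. All 13 were among the 29, which is 44.8% of the S1 list and 100% of the S2 list. The 16 others had negative differences on S2 as well, between -3.83 and -1.64, with limma's adjusted p from 0.0528 upward. The differences on the designs had a Pearson r of 0.963 and a Spearman rho of 0.856 across probes, and a median absolute gap of 0.165. Of the 1028 probes, 763 had the same sign on both designs. Probes at the upper limit on all shoot arrays have a difference of 0 on both designs by construction. S2 lay lower by a median of 0.139. AK062819 had the largest mean difference, -6.41 on S1 and -7.50 on S2, where it read 9.08 and 8.25 in IR64 and 16.01 and 16.32 in NB shoot. AK067852 had -6.02 and -6.75, and AK099053 had -6.05 and -6.00. AK058962, AK059529 and AK105589 were at the upper limit of 16.61 on all 4 NB shoot arrays, so their differences of -5.79 to -4.84 are limited by it. These 3 were read in IR64 at 10.65 to 12.30, well above background on all 4 arrays. The only AK probe called higher, AK100914, had 1.27 on S1 (limma's adjusted p 0.0469) and 1.37 on S2 (limma's adjusted p 0.572).

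**Figure D4:**
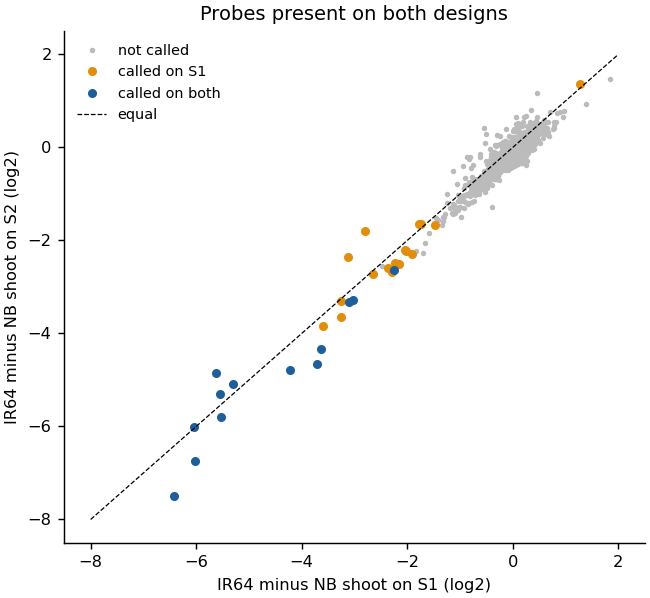
Log2 difference, IR64 minus NB shoot, of the 1028 probes present on both designs, S1 against S2, with the line of equal values. The 13 probes called on both designs (blue) lie between -2.26 and -6.41 on S1 and between -2.64 and -7.50 on S2, and 16 more were called lower on S1 alone (orange).

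By the chromosome in the probe name, chromosomes 11 and 12 had the largest shares of probes called lower on both designs. Rice chromosomes 11 and 12 are known for a duplicated segment that they share and for many disease resistance-like genes. On S1, 5.86% of the probes tested on chromosome 11 (73) and 5.07% on chromosome 12 (66) were called lower, against 1.87% to 3.53% on chromosomes 1 to 10 and 2.93% over all probes with a chromosome in the name. On S2 the shares were 1.85% (22) and 1.71% (21), against 0.307% to 1.08% and 0.791%. These calls came from 51 and 47 loci on S1 and from 15 and 17 on S2. Some loci gave several of them. Over both designs, R11-CHRv2-00319R had 8 probes called lower and R12-CHRv2-00094R had 7. The median difference was near 0 on both chromosomes, -0.02 each on S1, so that the bulk of their probes was not shifted. Counted without a test on the shared scan day, 4.98% and 4.07% of the probes were below -2 on S1, against 1.37% to 2.84% on chromosomes 1 to 10. On S2 they were 4.88% and 4.16%, against 1.5% to 2.84%. The arrays of that day also entered the calls, so these shares are no independent check. On S1 the excess was found in COMM probes (4.88% and 4.47%, against 2.45% over all chromosomes) and in E5 probes (9.7% and 7.44%, against 3.6%). END3TU probes did not show it on chromosome 11 (3.77%, against 3.86%) and had 4.48% on chromosome 12. On S2 the classes differed from this. COMM probes had 1.59% and 1.06%, against 0.676%, with 1.26% on chromosome 9 and 1.2% on chromosome 10. E5 probes had 2.71% and 1.97%, against 0.858%, and END3TU probes 1.26% and 3.04%, against 1.15%.

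**Figure D5:**
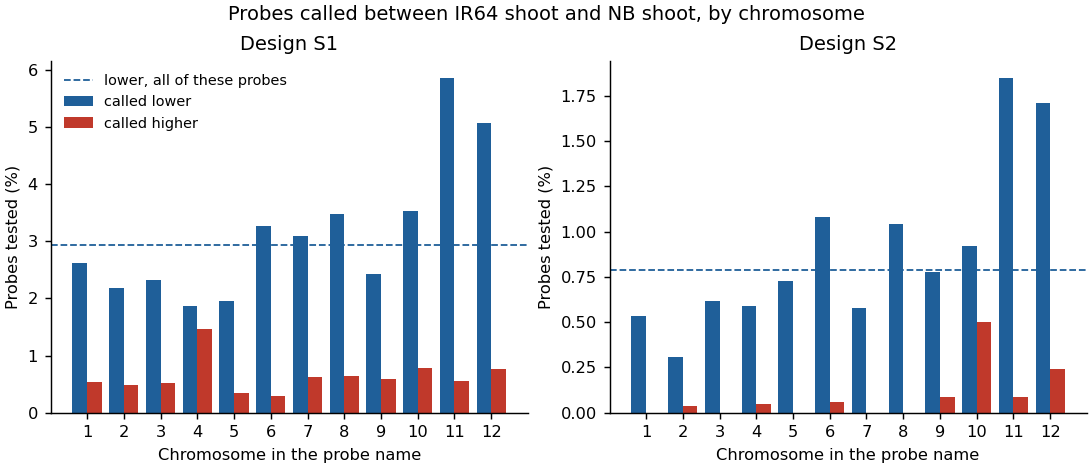
Percent of the tested probes called lower (blue) and higher (red) in IR64 shoot by the chromosome in the probe name, on S1 and S2 (the y axes differ); the dashed line is the share called lower over all these probes. Chromosomes 11 and 12 have the tallest blue bars, 5.86% and 5.07% on S1 and 1.85% and 1.71% on S2.

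Chromosome 4 had the largest share of probes called higher on S1, 1.47% (29 probes of 20 loci), against 0.623% over all chromosomes, but 1 of its probes was called higher on S2. Chromosome 10 had the largest share on S2, 0.503%, from 6 probes of 3 loci, and 3 of these belong to R10-CHRv2-00350R. Shares that rest on so few loci follow the number of probes a locus has.

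The probes called lower in IR64 shoot were detected in the other NB tissues at a share near that of all tested probes on S1. Of the 773 called lower on S1, 675 (87.3%) were detected on every array of NB root, panicle and callus, against 84.2% of all tested probes. The number detected on no such array was 12 of the 773, a larger share than the 121 of all 36867 tested probes. Such probes were tested only because a shoot group had them detected. On S2 172 of 205 (83.9%) were detected on all of them, against 70.8% of all tested probes. Their median level on S1 was 9.33 in IR64 shoot and 12.27 in NB shoot, beside 11.74 (NB root), 12.11 (panicle) and 11.61 (callus). IR64 shoot lay below each of root, panicle and callus for 582 of the 773 probes (75.3%, against 30.2% of all tested probes). On S2 the medians were 8.68 in IR64 shoot and 12.23 to 13.69 in the NB tissues. The calls themselves set IR64 shoot low and NB shoot high, so these positions of IR64 are a description and no independent support.

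The probes called higher in IR64 had low medians in the NB tissues, although single probes such as R11-E3TU-00879F were bright in one of them. On S1 their median level was 11.29 in IR64 shoot and 9.08 to 9.43 in the 4 NB tissues, and 172 of 259 (66.4%) were detected on every array of root, panicle and callus, against 84.2% of all tested probes. At a scaled signal above 1000 in each of these tissues the number was 57 (22.0%), against 48.8% of all tested probes. In none of these tissues did 117 of the 259 pass 1000, against 12308 of all 36867 tested probes. IR64 shoot, set high by the calls, lay above each of root, panicle and callus for 209 of the 259 (80.7%, against 38.7% of all tested probes). On S2 the 18 probes had a median of 13.83 in IR64 shoot and 8.76 to 9.29 in the NB tissues. The calls also set NB shoot, 1 of these NB tissues, low. Of the 259 probes on S1, 20 were detected on no root, panicle or callus array, against 121 of all 36867. Such probes were tested only because a shoot group had them detected. The low levels and shares in NB are therefore a description and no independent support.

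By detection alone, more probes were found in NB shoot only than in IR64 shoot only with all arrays, but the order turned when single arrays were left out. On S1, 526 probes (1.25% of 42034) were detected on both NB shoot arrays and on neither IR64 array, and 239 (0.569%) the other way round. On S2 there were 417 (0.992%) and 194 (0.462%). Of the 526, 205 were also called lower, and 504 were detected on some array of NB root, panicle or callus. Of all 36867 tested probes of S1, 121 were detected on no array of these tissues. By class, 2.28% of END3TU and 1.54% of COMM probes of S1 were detected in NB shoot only, against 0.584% of CDS probes. In IR64 shoot only, CDS (0.772%) and END probes (0.904%) had the larger shares and COMM probes 0.392%. No AK probe was detected in 1 variety only. Without IR64 shoot replicate 2 on S1, 723 probes were detected in NB shoot only and 1037 in IR64 shoot only, and without NB shoot replicate 1 they were 643 and 1329. Leaving out IR64 shoot replicate 1 gave 1475 and 378, and leaving out NB shoot replicate 2 gave 1626 and 400. On S2 the counts were 504 and 1642 without IR64 shoot replicate 2, and 538 and 1843 if NB shoot replicate 1 was left out. They were 1423 and 237 without IR64 shoot replicate 1, and 1126 and 352 if NB shoot replicate 2 was left out. The order thus followed which of the brighter and dimmer arrays stayed in.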

How the data were processed

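The authors' scanner files came from Feature Extraction 8.1.1.1, per the file headers (GEO's processing label gives version 7.5). The deposited processed signal intensity is background-subtracted and dye-normalized within an array. The deposited files also hold mean and background intensity for each channel, and flags for each spot. A spot was well above background at p 0.01 and 2.6 SD. The study's methods set the median of an array to 1000 with a limit at 100000, which was done here for each channel over non-control probes. Saturated spots were kept, and spots marked as outliers were not used. Channels were averaged as log2. Probes detected in at least 1 of the 5 groups of a design were fitted with lmFit and eBayes of limma 3.58.1 (R 4.3.3; two-sided; S1 has 10 arrays and S2 has 9), with Benjamini-Hochberg adjustment within a design. The fit was tested on simulated data. The rest used Python 3.11.15, numpy 2.4.6, pandas 2.3.3, scipy 1.17.1 and matplotlib 3.10.9. Lower-bound folds set the brighter group's mean against, per array, the higher of the dim probe's value and the lowest value well above background.

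The members, lists and tests were chosen with earlier results of these data known. Probes were named by rules: on each design and in each direction the 5 called probes with the largest difference, no overlap of arrays and 1 per identifier, the 6 largest called on both designs, 4 loci per list with at least 3 tested probes (largest mean in each direction, widest range), and the 3 probes dark in NB shoot that were brightest in another NB tissue. Groups and replicates came from the titles. The alternatives were other scalings, channels, filters, blocks, thresholds and single arrays left out. The series-wide ratio tables were not used.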

Additional observations from a re-analysis of the deposited data

How the results depend on the processing

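No named probe changed sign under any alternative. With the replicate block limma called 1707 probes on S1 and 1280 on S2, which held all 1032 and all 223 probes called without it. The pairing check gave a correlation of the replicate deviations of IR64 and NB shoot of 0.176 on S1 and 0.648 on S2, and replicate 2 of every group that has one was scanned on 1 day. The labels tie the numbers to no day or plant, and 2 numbers are too few to settle a pairing. The block gave 1168 lower and 539 higher on S1, and 978 and 302 on S2. With scan day as a block 825 and 610 were called, of which 642 and 223 were among the main calls. NB shoot replicate 1 is alone on its day and adds nothing to that fit. A fit of only the shoot groups called 131 probes on S1 and 0 on S2 in limma, where 2083 had an unadjusted p under 0.05. The smaller number of arrays in that fit leaves fewer degrees of freedom. At adjusted p under 0.01, 554 and 44 were called. On S2, scaling to the 75th percentile gave 408, quantile normalization 503 and normexp 430, and the cause was not tested. Without single shoot arrays 389 to 601 probes were called on S1 and 0 to 1 on S2, with fewer arrays in the fit. Each array left out leaves its group with 1, which is assumed to vary like the others. Of 33 named probes each kept its call under the other scalings, filters, channels and blocks. Of these probes 5 lost it at adjusted p under 0.01 and 22 in the fit of only the shoot groups, and 16 or 17 lost it without a single shoot array.

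With 75th percentile scaling the median difference rose to 0.174 for END on S1, and to 0.265 for CDS and 0.204 for END on S2. Without single arrays it ran from -0.244 to 0.0671 for COMM and from 0.023 to 0.161 for END on S1, and on S2 from -0.583 to 0.00933 for AK, from -0.409 to 0.0456 for COMM and from 0.0193 to 0.132 for END. Probes detected in NB shoot only numbered 187 on S1 and 208 on S2 without the 2.6 SD step, and 332 on S1 with 1 channel enough. Without single arrays they ran from 643 to 1626 and from 504 to 1423. In IR64 shoot only, 387 and 311 passed a scaled signal of 1000, and without single arrays 378 to 1329 and 237 to 1843 were detected. Of the probes called higher, 57 on S1 and 3 on S2 passed 1000 in the 3 other NB tissues, against 172 and 10 detected there. The agreement within loci has no value for COMM probes alone, since a locus has at most 1.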

Other observations

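Some called loci carried consecutive numbers in their names, on the same chromosome and with the same strand letter. Of the 391 loci with a probe called lower, 374 had a tested locus with the next number, and in 19 of these pairs both were called (5.08%, beside 1.96% of all loci called lower). That the numbers follow the order on the chromosome is not stated in the sources used here. R06-CHRv2-00523F, R06-CHRv2-00524F and R06-CHRv2-00525F formed 1 such run, with mean fitted differences of -5.12, -1.77 and -2.97, of which the first and last include probes with only a bound. R12-CHRv2-00220R, R12-CHRv2-00221R and R12-CHRv2-00222R, with 1 tested probe each, had -1.81, -4.03 and a bound of at least 58.1-fold lower. R11-CHRv2-00318R, next to R11-CHRv2-00319R, was at least 36.7-fold lower on its only tested probe. In the other direction 1 of 79 pairs was called (1.27%, beside 0.406% of all loci). It was R10-CHRv2-00350R and R10-CHRv2-00351R, whose probes had mean fitted differences of 3.02 and 2.17, the first with 2 probes that have only a bound. These pairs were chosen after their values were seen and carry no test.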
